A study of Mus musculus with 9 samples.

Results

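The fibrous sheath and the outer dense fibres are cytoskeletal elements of the sperm tail, and 10 genes of these structures were followed in mouse round spermatids (RS): Akap3, Akap4, Fsip2, Ropn1, Ropn1l, Cabyr, Odf1, Odf2, Oaz3 and Spata18. They were taken by name from the 55414 genes in the deposited count table, by a rule that names genes and no measured value, but with earlier results of these data known, so the counts of called genes are not free of that choice. All 10 passed the filter on low counts that left 25128 genes for testing. RNA-seq had been carried out on 9 RS libraries, 3 per group. The incubation lasted 24 h and was with vehicle, with oxamate at 24 mM, which blocks lactate dehydrogenase, or with the same oxamate dose plus octyl-L2HG at 0.3 mM, an ester that brings L-2-hydroxyglutarate (L-2HG) into cells. Dimethyl sulfoxide was present at 0.15% in all groups, and the genotype is given as wild type (WT) throughout. According to the methods, germ cells were sorted by flow cytometry from testes of males on a C57Bl/6 background in which Stra8-iCre, active in germ cells, switches on a fluorescent reporter, and all groups share that background. A group with octyl-L2HG but without oxamate was not analysed here, so each comparison that involves octyl-L2HG has oxamate in at least one arm. The comparisons ask whether inhibition of lactate dehydrogenase, an enzyme able to form L-2HG, alters transcript levels, and whether added L-2HG moves them again.

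The flagellum of sperm carries outer dense fibres alongside the axoneme, and the fibrous sheath surrounds it along the principal piece as longitudinal columns joined by ribs. The sheath is a scaffold for protein kinase A (PKA) and for glycolytic enzymes, and the dense fibres stiffen the tail. Genes of both structures are transcribed in RS, well before the tail is completed in elongating spermatids, and much of the mRNA is stored until then.

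Library totals ranged from 32339533 to 39888396 counted reads. The 10 genes together took 1.08 to 1.11% of the reads in the vehicle libraries, 1.02 to 1.08% in the oxamate libraries and 1.01 to 1.02% in the libraries with both compounds. Numbers 1 to 3 are the vehicle libraries, 4 to 6 those with oxamate alone and 7 to 9 those with both compounds. Oxamate library 4 stood apart from oxamate libraries 5 and 6 on the second principal component, which held 26.9% of the variance, so changes in a member's call without it are given beside that member. Levels are CPM, the counts scaled to a library of fixed size, after TMM scaling. The study describes the incubations as made in triplicate but does not say, in the sources used here, whether the 3 libraries of a group came from separate animals, so p-values measure the spread between these libraries, which may be technical. All 10 RS marker genes were above 1 CPM in these libraries, and so were all 8 spermatocyte markers, which summed to between 1013 and 1206 CPM over the 9 libraries. The markers of spermatogonia summed to at most 21.0 CPM, of endothelial cells to at most 13.4 CPM, of macrophages to at most 5.11 CPM, of peritubular myoid cells to at most 3.04 CPM, of Sertoli cells to at most 1.47 CPM, of Leydig cells to at most 1.11 CPM and of erythroid cells to at most 0.0304 CPM.

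RefSeq promoters on GRCm38.p6, from 250 bases before to 50 bases after the start of the gene, were found for 7 of the 10 genes, the others being Odf1, Cabyr and Oaz3. Akap3 and Akap4, the A-kinase anchoring proteins of the fibrous sheath, lie on chromosomes 6 and X. Even so, their promoters share a run of 20 bases a short way before the start. The table holds 2 promoters for Akap4, and of these only the promoter shown has the run. No other of the 32851 promoters in the table holds that run. The 100 bases before each start are shown for both genes, on the plus strand, with the shared run in capitals, because this is a feature that the choice of genes did not use.
Akap3, chr6:126852998-126853097: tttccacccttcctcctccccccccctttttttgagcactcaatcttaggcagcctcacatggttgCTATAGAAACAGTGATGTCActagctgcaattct
Akap4, chrX:7067415-7067514: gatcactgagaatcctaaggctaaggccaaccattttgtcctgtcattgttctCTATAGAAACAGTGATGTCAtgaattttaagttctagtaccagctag
The run begins 34 bases before the start in Akap3 and 47 bases before it in Akap4. It ends in TGATGTCA, which differs by a single base from TGACGTCA, the cyclic AMP response element. TGATGTCA on either strand was present in 3.62% of all promoters and TGACGTCA in 1.79%, while TGACGTCA was in none of the 7. In Akap3 the start of the run also overlaps a match to the X-box motif bound by RFX factors, and 0.186% of all promoters hold a match on either strand. These motifs were looked for after the sequences had been seen.

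The promoters of Ropn1 and Spata18, which of the 10 genes had the largest falls with both compounds against vehicle, are shown in the same way.
Ropn1, chr16:34651111-34651210: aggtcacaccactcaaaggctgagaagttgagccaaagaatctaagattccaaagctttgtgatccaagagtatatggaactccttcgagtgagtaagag
Spata18, chr5:73651280-73651379: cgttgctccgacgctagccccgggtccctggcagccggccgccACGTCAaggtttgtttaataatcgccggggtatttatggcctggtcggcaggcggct
The capitals in Spata18 mark a cyclic AMP response element half-site, TGACGT read on the other strand, and 7.51% of all promoters hold this half-site on one strand or the other. None of the motifs named here was in the Ropn1 window, nor in those of Odf2, Fsip2 and Ropn1l.

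The 10 genes were among the abundant transcripts of RS. By mean CPM over the 9 libraries, Odf2 ranked 5 and Akap3 ranked 37 among the 25128 genes tested, and Spata18, the lowest of the 10, ranked 1523. To compare genes with each other, CPM was divided by the length of the longest annotated transcript in kilobases. On this scale the vehicle level was highest for Ropn1l, at 1504 CPM per kb (range 1452 to 1574, n = 3), followed by Odf2 at 878 (858 to 911), Akap3 at 518 (511 to 522) and Odf1 at 454 (438 to 467). The middle of the order, per kb in vehicle, held Akap4 at 345 (338 to 355), Ropn1 at 317 (307 to 332), Cabyr at 276 (272 to 282) and Oaz3 at 228 (226 to 230). Spata18 at 96.5 (94.7 to 98.6) and Fsip2 at 34.0 (27.4 to 38.2) CPM per kb were lowest. Fsip2 encodes a very large protein, and its transcript of 21116 bases places it last on this scale although it ranked 176 by CPM.

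Ranges of neighbouring genes in this order did not overlap in vehicle. With oxamate, Ropn1 at 299 to 307 CPM per kb overlapped both Akap4 at 300.4 to 339 and Cabyr at 280 to 301. With both compounds the means of Ropn1 and Cabyr stood in the other order, at 233 (223 to 246) and 248 (234 to 265) CPM per kb, and their ranges overlapped. The position of Odf2 depends on the length used, because its exons add up to 9919 bases over all isoforms against 4291 in the longest transcript, and per kb of all exons its vehicle level was 380 CPM. The level of Oaz3 depends on it too, with 4326 exonic bases against 2255 in the longest transcript. Per kb of all exons its vehicle level was 119 CPM.

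**Figure D1:**
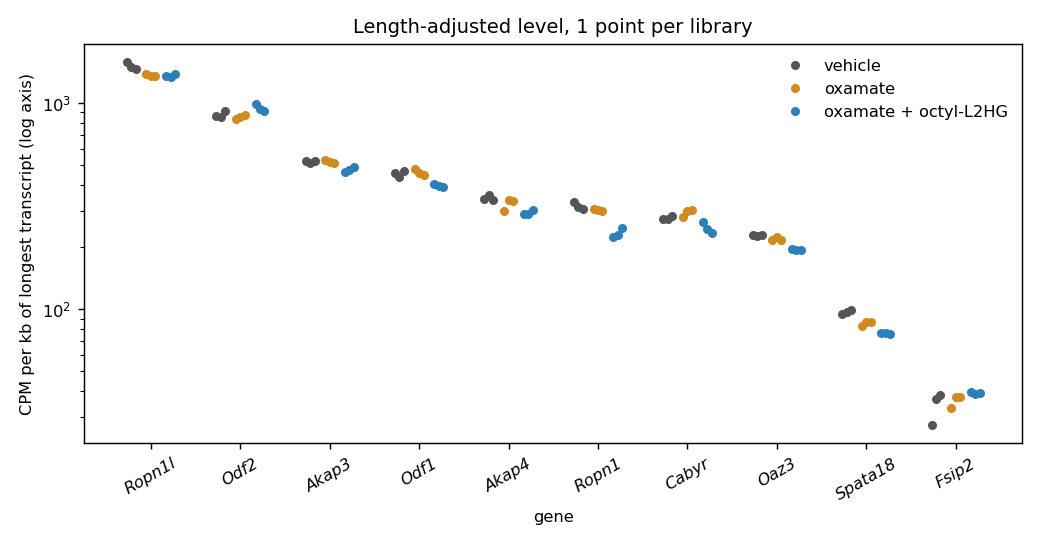
Level of each of the 10 genes in CPM per kb of longest transcript, on a log axis, with 1 point per library and the groups in colour, the genes ordered by vehicle mean. Ropn1l is highest and Fsip2 lowest in all groups. The step from vehicle to both compounds is small beside the distance between Ropn1l and Fsip2, but not beside that between all neighbours. Ropn1 passes below Cabyr with both compounds.

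Oxamate alone left the 10 genes with no called difference from vehicle. By edgeR's quasi-likelihood test 0 of 10 were called higher and 0 of 10 lower, in a comparison that called 3.97% of all genes tested higher and 1.22% lower. These shares rest on 997 and 306 genes, which became 1583 and 705 without oxamate library 4 and 538 and 121 without vehicle library 2. Among the 2361 genes with a mean CPM of at least 100, a group to which all 10 belong, 6.48% were called higher and 0.381% lower. At an unadjusted p-value under 0.05 there were 2 lower and 0 higher, against 1790 lower and 2558 higher among all 25128 genes tested. DESeq2 called 1 lower and 0 higher, against 270 lower and 984 higher among those genes. The 95% intervals of the log2 differences lay between -0.30 and 0.27 over all 10 genes. Their median log2 difference was -0.05, against -0.01 over all genes tested.

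The pair past the unadjusted threshold was Ropn1l and Spata18. Spata18 encodes a protein of mitochondrial quality control that has also been placed in the sperm tail. It stood at 187, 191 and 195 CPM in vehicle and at 163, 172 and 172 CPM with oxamate. All oxamate libraries lay below all vehicle libraries, and the log2 difference was -0.18 (SE 0.06), with an adjusted p of 0.107 by edgeR and 0.0456 by DESeq2. Over 16 alternative settings its adjusted p ranged from 0.0456 to 0.232. Ropn1l, a ropporin-like protein whose dimerization and docking domain resembles that of the PKA regulatory subunit, stood at 1507, 1421 and 1390 CPM in vehicle and at 1327, 1290.4 and 1290 CPM with oxamate. Its libraries did not overlap either, with a log2 difference of -0.14 (SE 0.06, adjusted p = 0.182).

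Adding octyl-L2HG to oxamate lowered 3 of the 10 transcripts relative to oxamate alone, namely Ropn1, Cabyr and Odf1, and raised 0. The same comparison called 8.06% of all genes tested lower and 3.18% higher, and 7.71% lower and 13.0% higher among genes with a mean CPM of at least 100. The 2025 lower and 798 higher genes over all became 2840 and 1575 without oxamate library 4, 1119 and 310 without oxamate library 5, 1154 and 242 without library 7, 1199 and 266 without library 8, and 1343 and 399 without library 9. The count of 3 lower was 1 without oxamate library 5, library 8 or library 9, without the filter on low counts or with the length trend removed, and 6 without oxamate library 4 or with total counts as the scaling. At an unadjusted p-value under 0.05 there were 7 lower and 1 higher, against 3799 lower and 2135 higher among all 25128 genes tested. DESeq2 called 1 higher, which was Odf2, against 1258 higher among those genes. The median log2 difference of the 10 genes was -0.15, against 0.05 for genes with a mean CPM of at least 100 and -0.04 for all genes tested.

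Relative to vehicle, RS with both compounds had 5 of the 10 transcripts lower, Ropn1, Spata18, Akap4, Oaz3 and Odf1, and 0 higher. This comparison called 10.6% of all genes tested lower and 7.48% higher, and among genes with a mean CPM of at least 100 it called 7.20% lower and 20.2% higher. Over all genes tested, leaving out 1 library gave 1800 (without library 7) to 3383 (without oxamate library 4) lower against 2655 with all, and 1170 (without library 7) to 2811 (without oxamate library 4) higher against 1879, with 1205 higher without library 8. The count of 5 lower was 3 without library 8 or without the filter on low counts, and 8 without oxamate library 4 or with total counts as the scaling. Oxamate library 4 is in neither group of this comparison, so leaving it out acts only through the fit shared by all libraries. At an unadjusted p-value under 0.05 there were 8 lower and 1 higher, the latter being Fsip2. Among all 25128 genes tested, 4298 were lower and 3229 higher at that threshold. DESeq2 called 0 of the 10 higher, against 2161 among all genes tested. The median of the 10 log2 differences was -0.17, against 0.07 for genes with a mean CPM of at least 100 and -0.05 for all genes tested. A test of any difference among the 3 groups called 6 of the 10 genes, those 5 and Cabyr, and 19.8% of all genes tested, and 2 of the 10 without vehicle library 3, library 8 or library 9 and 3 without library 7 or without the filter on low counts. The 3 comparisons share libraries pairwise and are not independent of each other.

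**Figure D2:**
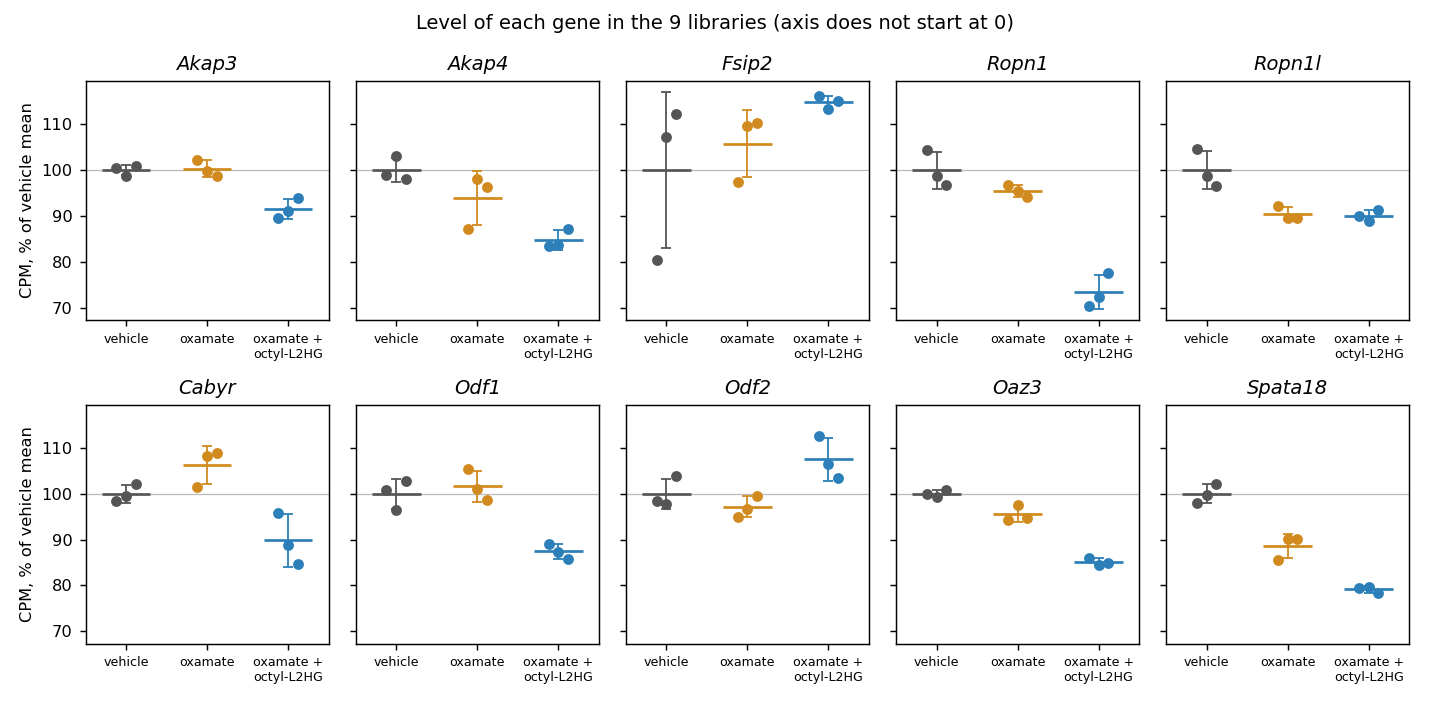
Level of each gene in the 9 libraries, as CPM in percent of the vehicle mean, with the mean as a bar and the SD as whiskers (n = 3), on an axis that does not start at 0. Ropn1 and Spata18 have the lowest means with both compounds in percent of vehicle, Fsip2 and Odf2 lie highest there on average, and 1 vehicle library of Fsip2 lies far below the other 2.

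Among the scaffold proteins of the fibrous sheath, Akap4 fell and Akap3 did not pass the test. Akap4 is the main structural protein of the sheath and anchors PKA there, and Akap3 is its partner in sheath assembly. In vehicle Akap4 was at 1031, 1074 and 1021 CPM, with oxamate at 907, 1023 and 1004 CPM, and with both compounds at 868, 872 and 909 CPM. The groups vehicle and both compounds did not overlap, whereas oxamate library 4 fell within the range of the libraries with both compounds. Akap4 was lower with both compounds than in vehicle by a log2 difference of -0.24 (SE 0.06, adjusted p = 0.00872), a change of -15.3%. Against oxamate the difference was -0.15 (adjusted p = 0.137). Without oxamate library 4 this became -0.20 (adjusted p = 0.00791), and without library 8 the call against vehicle was lost (adjusted p = 0.0554). The adjusted p of Akap4 ranged over the alternatives from 0.00791 to 0.506 against oxamate and from 0.000245 to 0.0554 against vehicle.

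Akap3 was at 1640, 1612 and 1646 CPM in vehicle and at 1671, 1630 and 1613 CPM with oxamate, so those groups overlapped almost entirely. With both compounds it was at 1461, 1489 and 1533 CPM, below all 6 other libraries. The log2 difference of -0.13 (SE 0.06) was the same against oxamate and against vehicle, and the adjusted p was 0.145 and 0.127. Without oxamate library 4 the adjusted p against vehicle was 0.0461, within a range over the alternatives from 0.0161 to 0.56. That library is in neither group of the comparison, and the log2 difference without it was still -0.13.

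Fsip2, which is needed for sheath assembly, did not pass the test, and its differences had the opposite sign. It was at 578, 770 and 806 CPM in vehicle, at 699, 787 and 792 CPM with oxamate, and at 834, 814 and 826 CPM with both compounds. The 3 libraries with both compounds lay above the other 6, but vehicle library 1 was far below the rest, and the SD in vehicle was 123 CPM against 10.1 CPM with both compounds. The log2 difference of 0.20 (SE 0.09) between both compounds and vehicle was not called (adjusted p = 0.132). Without vehicle library 1 the difference was 0.07 (adjusted p = 0.61), and without vehicle library 3 it was 0.31 (adjusted p = 0.0417). Over the alternatives the adjusted p of Fsip2 ranged from 0.00472 to 0.61.

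The ropporins and Cabyr carry a domain like that of the PKA regulatory subunit, with which they dock to anchoring proteins in the sheath. Ropn1 had the largest difference of the 10 genes. It stood at 380, 359 and 352.4 CPM in vehicle, 352.0, 348 and 343 CPM with oxamate, and 256, 263 and 282 CPM with both compounds. The libraries with both compounds lay far below the other 6, while vehicle and oxamate libraries nearly touched. Relative to oxamate Ropn1 fell by 0.38 on the log2 scale (SE 0.06, adjusted p = 0.000396), a change of -23.1%. Relative to vehicle it fell by 0.45 (SE 0.06, adjusted p = 2.59e-05), a change of -26.6%. Ropn1 was called in both comparisons under all 16 alternatives, with log2 differences from -0.42 to -0.29 against oxamate and from -0.51 to -0.31 against vehicle.

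Ropn1l, whose product shares the docking domain with Ropn1, had another order of levels. With both compounds it was at 1294, 1280 and 1315 CPM, overlapping the oxamate libraries and below all vehicle libraries. Its log2 difference was -0.01 (SE 0.06, 95% interval -0.13 to 0.11, adjusted p = 0.971) against oxamate and -0.15 (SE 0.06, adjusted p = 0.0764) against vehicle. Without oxamate library 4 the latter was still -0.15 but was called (adjusted p = 0.0198), in a range over the alternatives from 0.00877 to 0.872.

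Cabyr encodes a calcium-binding sheath protein that is phosphorylated on tyrosine during capacitation. It was at 579, 585 and 601 CPM in vehicle, 597, 637 and 641 CPM with oxamate, and 564, 523 and 498 CPM with both compounds. Its lowest libraries were those with both compounds, and its highest mean was with oxamate. Cabyr fell by 0.24 on the log2 scale relative to oxamate (SE 0.06, adjusted p = 0.0146). Against vehicle the difference was -0.15 (adjusted p = 0.0963). Without oxamate library 4 it was still -0.15, with an adjusted p of 0.024 in a range over the alternatives from 0.0153 to 0.393. The call against oxamate was lost when oxamate library 5, oxamate library 6, library 8 or library 9 was left out (adjusted p from 0.0523 to 0.1).

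Of the outer dense fibre genes, Odf1 fell and Odf2 did not pass the test. Odf1 belongs to the small heat shock protein family and is needed for a firm joint between head and tail. Its levels were 506, 483 and 516 CPM in vehicle and 529, 507 and 495 CPM with oxamate, against 447, 438 and 431 CPM with both compounds. The libraries with both compounds were below all others. Odf1 fell by 0.22 relative to oxamate (SE 0.06, adjusted p = 0.0203) and by 0.19 relative to vehicle (SE 0.06, adjusted p = 0.0258) on the log2 scale. These calls were less stable than that of Ropn1 and held in 10 of 16 alternatives against oxamate and in 8 of 16 against vehicle. Against vehicle the call was lost without vehicle library 1 or 3 or without library 7, 8 or 9 (adjusted p from 0.0565 to 0.125), and against oxamate it was lost without oxamate library 5 or library 7, 8 or 9 (adjusted p from 0.0555 to 0.0941).

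Odf2 is a coiled-coil protein of the dense fibres that also has isoforms at the centriole. It was at 3707, 3682 and 3911 CPM in vehicle, 3580, 3646 and 3751 CPM with oxamate, and 4244, 4017 and 3896 CPM with both compounds. All libraries with both compounds lay above the oxamate libraries, and library 9 fell within the vehicle range. The log2 difference was 0.15 (SE 0.06, adjusted p = 0.112) against oxamate and 0.11 (SE 0.06, adjusted p = 0.236) against vehicle. DESeq2 gave an adjusted p of 0.0411 against oxamate, in a range over the alternatives from 0.0411 to 0.352.

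Oaz3, a testis-specific antizyme of ornithine decarboxylase that is needed for the head to stay joined to the tail, and Spata18 had their lowest levels with both compounds. Oaz3 was at 513, 510 and 518 CPM in vehicle, 485, 501 and 487 CPM with oxamate, and 442, 434 and 437 CPM with both compounds. The 3 groups did not overlap. Oaz3 was lower with both compounds than in vehicle by 0.23 on the log2 scale (difference -0.23, SE 0.06, adjusted p = 0.00631), and the steps from vehicle to oxamate (-0.07, adjusted p = 0.623) and from oxamate to both compounds (-0.17, adjusted p = 0.0649) were not called. The call against vehicle was lost without the filter on low counts (adjusted p = 0.0553), in a range over the alternatives from 0.000367 to 0.0553. Without oxamate library 4 the second step was called (adjusted p = 0.0202), in a range from 0.0155 to 0.378. In the GENCODE annotation of GRCm38, 2255 of the 4326 exonic bases of Oaz3 overlap exons of Tdrkh on the opposite strand, and the strand setting of the counting is not given in the sources used here, so reads of the 2 genes may not be separable. Tdrkh itself was at 15.5 CPM in vehicle, 15.4 CPM with oxamate and 16.6 CPM with both compounds, and was not called in any comparison.

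Spata18 was at 152, 152 and 150 CPM with both compounds, below the oxamate and vehicle values given earlier, and again no groups overlapped. Relative to vehicle it fell by 0.34 on the log2 scale (SE 0.06, adjusted p = 0.000397), a change of -20.8%. The call against vehicle held under all 16 alternatives, with log2 differences from -0.40 to -0.28. The step from oxamate to both compounds was -0.16 (SE 0.06, adjusted p = 0.092), and without oxamate library 4 it was -0.19 (adjusted p = 0.0186), in a range over the alternatives from 0.0186 to 0.436.

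**Figure D3:**
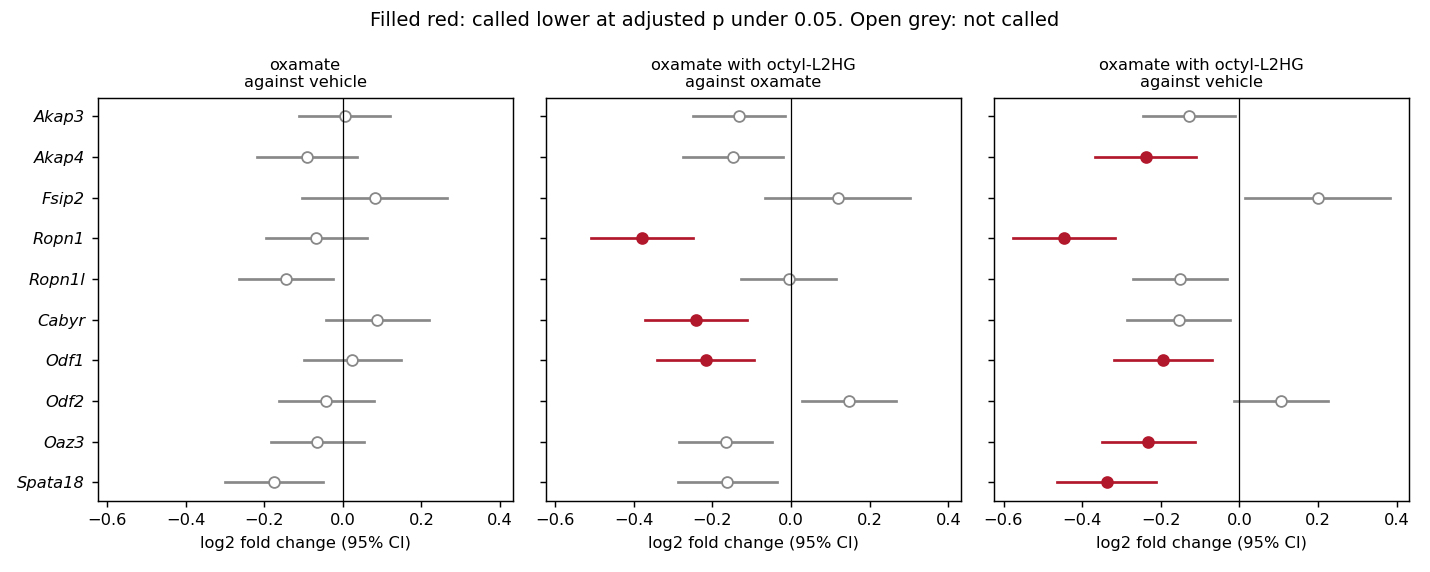
Log2 fold change of each gene in the 3 comparisons with its 95% confidence interval, filled where called at an adjusted p under 0.05. No gene is called for oxamate against vehicle, 3 are called lower with octyl-L2HG against oxamate, and 5 are called lower with both compounds against vehicle, while Fsip2 and Odf2 lie to the right of 0 in the last 2 panels.

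Differences in these libraries moved with transcript length, and the 10 genes span a wide range of it. Among 2359 genes with a mean CPM of at least 100 and a known length, the median log2 difference between both compounds and vehicle was -0.09 for transcripts of up to 1500 bases and 0.16 for those over 5000 bases. Fsip2 with 21116 bases and Odf2 with 4291 bases are the longest of the 10, and they were the 2 with values above 0 in that comparison. Ropn1l with 957, Odf1 with 1105 and Ropn1 with 1147 bases are the shortest. In a fit with the length trend removed, chosen after the data were seen, 4 of the 5 calls against vehicle stayed below the threshold: Ropn1 at -0.31 (adjusted p = 0.0008), Spata18 at -0.28 (adjusted p = 0.00243), Akap4 at -0.25 (adjusted p = 0.00748) and Oaz3 at -0.20 (adjusted p = 0.018). Odf1 was at -0.05 (adjusted p = 0.651) in that fit, and Ropn1l went from -0.15 to 0.02, neither called. Fsip2 and Odf2 stayed above 0 there, at 0.17 (adjusted p = 0.0842) and 0.06 (adjusted p = 0.535) against vehicle. Against oxamate they were at 0.19 (adjusted p = 0.0684) and 0.17 (adjusted p = 0.0559), none of these called. Against oxamate Ropn1 was still called at -0.29 (adjusted p = 0.0025), whereas Odf1 was at -0.13 (adjusted p = 0.19) and Cabyr at -0.19 (adjusted p = 0.0538).

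The markers of RS moved as well. Their summed level was 2495 to 2582 CPM in vehicle, 2360 to 2395 CPM with oxamate and 2220 to 2254 CPM with both compounds. Of the 10 markers, Prm1, Prm2, Tnp1 and Tnp2, which encode the protamines and transition proteins that replace histones, fell in each comparison, Prm1 from 137 CPM in vehicle to 100.2 CPM with oxamate and 80.0 CPM with both compounds. Tssk1 and Tssk2, kinases of late spermatids, were lower with both compounds than in vehicle, while the acrosomal genes Acrv1 and Acr were higher (log2 differences 0.25 and 0.21). Outside the RS list, the spermatocyte marker Piwil1 was higher with oxamate than in vehicle (40.5 against 33.8 CPM, log2 difference 0.26, adjusted p = 0.032), while the other 7 spermatocyte markers were not called and ranged from -0.23 to 0.03. Spermatogonial markers summed to 16.7 to 18.5 CPM in vehicle, 20.4 to 21.0 CPM with oxamate and 18.8 to 20.5 CPM with both compounds. Dazl, the most abundant of them, had a log2 difference of 0.29 between oxamate and vehicle (adjusted p = 0.0551). Peritubular myoid markers summed to 2.42 to 2.57 CPM in vehicle, 2.68 to 3.04 CPM with oxamate and 2.22 to 2.60 CPM with both compounds. Endothelial markers summed to 12.1 to 13.4 CPM in vehicle, 11.2 to 11.7 CPM with oxamate and 8.21 to 9.70 CPM with both compounds. Most of that sum was Vwf, the only one of the 4 above 1 CPM, which was lower with both compounds than in vehicle (8.01 against 11.5 CPM, log2 difference -0.52, adjusted p = 0.000447) and than with oxamate (-0.30, adjusted p = 0.0491). The part of these shifts in the results for the 10 genes was not tested. Fewer cells of a stage and less RNA per cell cannot be told apart in bulk libraries.

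Other genes of the same structures and pathways were counted in 5 lists. Their calls are those of the main fit, and how they held under the alternatives is not given here. Oxamate against vehicle called 3.97% of all genes tested higher and 1.22% lower. Both compounds called 3.18% higher and 8.06% lower against oxamate, and 7.48% higher and 10.6% lower against vehicle. Of 13 further genes of the fibrous sheath and its glycolytic enzymes, 0 were called with oxamate alone. Gapdhs, the sperm glyceraldehyde-3-phosphate dehydrogenase bound to the sheath, was lower with both compounds than with oxamate (log2 difference -0.25, adjusted p = 0.0113) and than in vehicle (-0.23, adjusted p = 0.0128). Its mean was 713 CPM in vehicle, 725 CPM with oxamate and 610 CPM with both compounds, an order like that of Odf1. Tsga10, a sheath protein, rose relative to oxamate (0.26, adjusted p = 0.0346). The remaining genes of this list were not called, and its median log2 difference between both compounds and vehicle was -0.03.

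Among 6 PKA subunits, the partners that AKAP3 and AKAP4 anchor, 2 regulatory subunits moved in opposite directions. Prkar1b rose with oxamate from 8.60 to 11.6 CPM (log2 difference 0.43, adjusted p = 0.00598) and stood at 12.6 CPM with both compounds (0.55 against vehicle, adjusted p = 0.000184). Prkar2a was lower with both compounds than in vehicle (17.9 against 23.7 CPM, log2 difference -0.41, adjusted p = 0.00161). The catalytic subunits Prkaca and Prkacb were not called.

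Of 11 other outer dense fibre genes and partners, 10 were tested. Against vehicle, RS with both compounds had Odf3 (-0.20, adjusted p = 0.0249) and Cby2 (-0.18, adjusted p = 0.0497) lower and Ccdc42 (0.21, adjusted p = 0.0298) higher. Against oxamate only Odf3l1 was called (-0.25, adjusted p = 0.0187). The median log2 difference of this list was -0.15 against oxamate, the value also found for the 10 genes, and -0.07 against vehicle.

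Of 10 genes of the mitochondrial sheath and the annulus, the neighbouring structures of the midpiece, 4 were lower and 0 higher with both compounds than in vehicle, in a comparison that called 10.6% of all genes tested lower and 7.48% higher. They were Spata19 (-0.31, adjusted p = 0.00122), Armc12 (-0.33, adjusted p = 0.00363), Tbc1d21 (-0.19, adjusted p = 0.0464) and Gpx4, the selenoprotein of the mitochondrial capsule (-0.24, adjusted p = 0.0401). Relative to oxamate, Armc12 (-0.32, adjusted p = 0.00794) and Septin4 of the annulus (-0.23, adjusted p = 0.0286) were lower and Slc26a8, an annulus anion transporter, was higher (0.19, adjusted p = 0.0427).

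Oaz3 belongs to the control of polyamines. Of 9 other genes of polyamine synthesis and antizymes, the 2 antizyme inhibitors were lower with both compounds than with oxamate and than in vehicle. These comparisons called 8.06% and 10.6% of all genes tested lower. Azin2 was at 28.3 to 33.3 CPM in vehicle, 33.5 to 36.1 CPM with oxamate and 19.7 to 21.4 CPM with both compounds, a log2 difference of -0.77 (SE 0.08, adjusted p = 2.22e-06) against oxamate. Azin1 had a difference of -0.45 (adjusted p = 0.00204) against oxamate and -0.47 (adjusted p = 0.000585) against vehicle. Odc1, which encodes ornithine decarboxylase, was not called in any comparison.

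**Figure D4:**
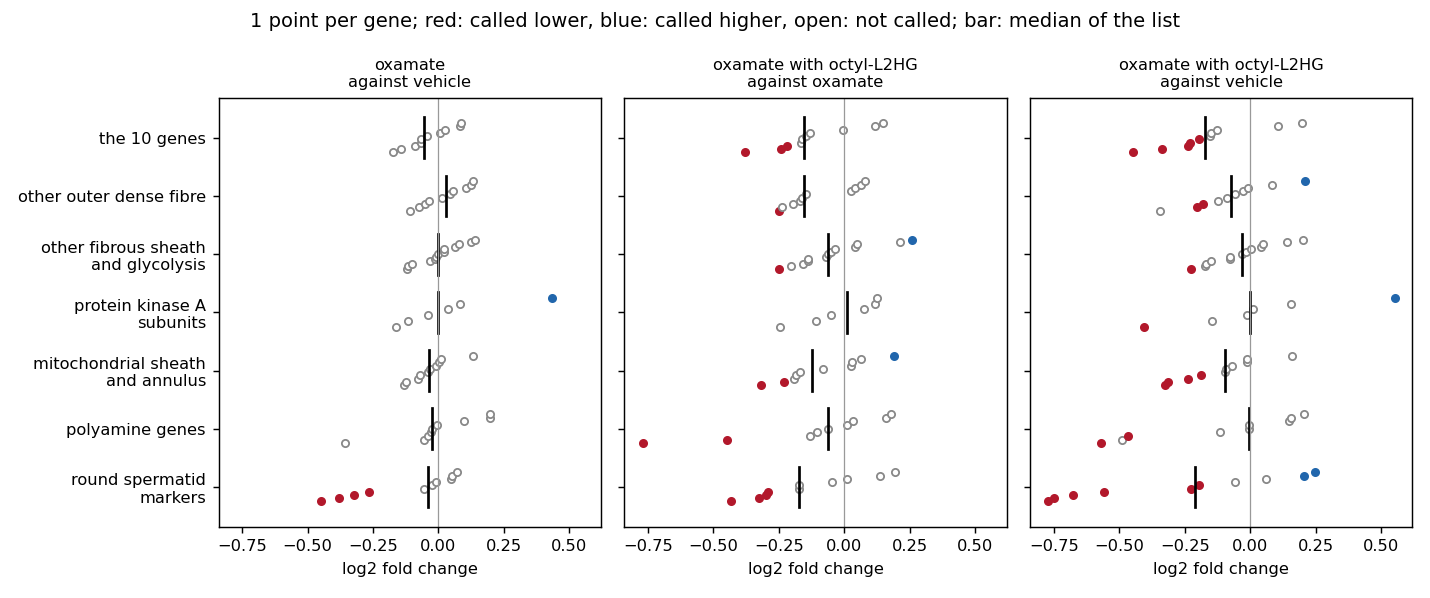
Log2 fold changes of the 10 genes, of 5 related gene lists and of the RS markers in the 3 comparisons, with 1 point per gene, called genes filled and the median of each list as a bar. The 10 genes have a median of -0.17 with both compounds against vehicle, and in that comparison the PKA, outer dense fibre and RS marker lists hold called genes in both directions, while the calls in the other lists are all lower.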

How the data were processed

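Groups were taken from the sample labels. The authors deposited counts of reads per gene for 9 polyA-selected libraries from a stranded kit, and beside them a normalized signal, which equals the counts divided by 1 size factor per library and was used only to check the counts. Per the labels and methods, reads were trimmed (cutadapt 2.10), aligned with TopHat2 2.1.1 to GRCm39, counted with HTSeq 2.01 and tested with DESeq2 1.36.0. The sequencing instrument given in the labels is not the one in the methods.

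The 25128 genes with at least 10 summed counts were fitted with edgeR 4.0.16 (R 4.3.3) over all 9 libraries, with TMM scaling, the robust quasi-likelihood test and Benjamini-Hochberg adjustment over all genes tested, called at an adjusted p under 0.05. DESeq2 1.42.0 was an alternative, beside other scalings, filters, fits of the compared groups alone and each library left out. Removal of the length trend was chosen after seeing the data. Replicate libraries differed by more than sampling noise (chi-square per degree of freedom 2.10 to 23.3). Transcript lengths came from GENCODE M21 (GRCm38), matched by identifier for 99.6% of genes tested, and promoters from RefSeq. The strand setting of counting is not given in the sources used here.

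The 10 genes and the lists were chosen with earlier results of these data known. The rule for named genes took the 10, up to 4 called genes of each list by adjusted p, and for each of the 10 the gene with the most similar pattern among those with a mean CPM of at least 5. Tbc1d21, Slc26a8, Prkaca, Prkacb, Odc1, Tdrkh and the cell type markers are outside this rule and were added with their values already seen. The nearest genes of 2 of the 10 are not reported here.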

Additional observations from a re-analysis of the deposited data

How the results depend on the processing

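Over the 10 genes, 3 comparisons and 16 alternatives there were 480 values, of which 441 kept their side of the threshold, 22 lost a call, 17 gained one and 0 called values turned direction. With oxamate against vehicle, the count of lower genes went from 0 to 1 with DESeq2 and 2 at an unadjusted p-value under 0.05. With octyl-L2HG against oxamate, the count lower went from 3 to 6 with total counts as the scaling, 1 without a filter on low counts, 7 at the unadjusted threshold and 1 with the length trend removed, and the count higher from 0 to 1 with DESeq2, without the filter and at the unadjusted threshold. With both compounds against vehicle, the count lower went from 5 to 8 with total counts, 3 without the filter and 8 unadjusted, and the count higher from 0 to 1 without the filter and unadjusted. Genes with any difference went from 6 to 3 without the filter. The causes were not tested.

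Leaving out 1 library gave 1 (without oxamate 5, or library 8 or 9) to 6 (without oxamate 4) lower against oxamate. It gave 3 (without library 8) to 8 (without oxamate 4) lower and 0 to 1 (without vehicle 3) higher against vehicle. Oxamate 4 is in neither group of that comparison. Genes with any difference were 2 (without vehicle 3, or library 8 or 9) or 3 (without library 7) to 7. Total counts moved the median of all genes from -0.05 to -0.11 for both compounds against vehicle and the calls from 1879 higher and 2655 lower to 1231 and 3367; against oxamate they went from 798 and 2025 to 421 and 2516. No paired analysis was possible because the labels number the libraries 1 to 9 and no number is shared between groups.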

Other observations

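For the genes given here, the gene with the most similar pattern was sought by the Pearson correlation of log2 CPM over the 9 libraries, among 9176 other genes with a mean CPM of at least 5. The correlation is over libraries that share their groups and their depth, and is given as a description only. Ropn1 was nearest to Spata25 (r = 0.994), Akap4 to Tmem161b (0.989), Akap3 to Ccdc187 (0.988) and Spata18 to Plbd1 (0.988). Odf1 was nearest to Tsks (0.986), which encodes a spermatid substrate of the TSSK kinases. Odf2 was nearest to Cep131 (0.975), a centrosomal protein. The nearest genes of Fsip2 and Ropn1l were Epc2 (0.982) and Bola2 (0.970).

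Among the 10 genes themselves, Ropn1 and Akap3 ran most closely together (r = 0.958), followed by Oaz3 and Spata18 (0.952). Akap3 and Akap4, which share the promoter run, had r = 0.714. Odf2 and Fsip2 ran against the other 8 in each pairing, Odf2 from -0.874 with Akap3 to -0.333 with Ropn1l, and with each other had r = 0.532. Ropn1l and Cabyr were nearly unrelated (0.0690).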
